A study of Mus musculus with 2 samples.

Results

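The loci described here are the long terminal repeats (LTRs) of intracisternal A particle (IAP) elements whose methylation level was under 70% in mouse embryonic stem (ES) cells, and they numbered 320 of 4799 loci. They were chosen on the ES level alone, whatever their level in the other cell line, so their ES values are a description and carry no test. The ES library came from AB2.2 cells, which are ES cells of strain 129, and the other from Neuro2A cells, labelled as brain neuroblastoma and as strain A albino, each as cell stock with no treatment named and 1 library per line. Bisulfite sequencing of LTR junctions gave 1 methylation level per locus, in percent, and positions are given 1-based on mm9. Replicates and read numbers are not given, so no difference between the lines could be tested, the depth behind each level is unknown, and the labelled cell types could not be checked against markers in these data.

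IAPs are mouse endogenous retroviruses. A complete copy has an LTR at each end, and the 5′ LTR acts as its promoter. A copy whose LTRs have recombined leaves a single, solo LTR in the genome. In most cells IAP LTRs are kept silent by dense CpG methylation, and single copies that escape it can act as promoters for neighbouring genes. A level is a mean over molecules, so full methylation in some molecules and partial methylation in all of them cannot be told apart.

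The rule placed 6.67% of loci among the members. Their ES levels reached from 0.0% to 69.9%, with a median of 64.75% and an interquartile range of 59.4 to 67.8%. Most members lay close to the threshold: 155 were at 65% or above, 80 between 60 and 65%, 56 between 50 and 60%, and 29 (0.604% of all loci) under 50%. Across the threshold the levels ran on without a gap. Among the members just inside it, at 69.9%, the first in chromosome order were an IAPLTR1_Mm copy at chr6:68240023-68240395 (minus strand), an IAPLTR2a copy at chr7:68991703-68992101 (plus strand) and an IAPLTR2b copy at chr9:35625488-35625803 (minus strand), with Neuro2A levels of 80.7%, 56.0% and 39.2%. Further members at 69.9% lay on chromosome 13 and the X chromosome, at 55.6% and 59.4% in Neuro2A cells. The loci named just outside, all at 70%, were an IAPLTR2b and an IAPLTR2_Mm copy on chromosome 9 (78596061 to 78596378 and 94072259 to 94072706, both minus strand) and an IAPLTR2b copy at chr12:15732480-15732757 (minus strand), with Neuro2A levels of 46.8%, 43.2% and 99.1%. The 6 loci given with positions thus spanned 39.2 to 99.1% in Neuro2A cells.

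Most members belonged to the IAPLTR2 subfamilies. IAPLTR2_Mm gave 152 members, IAPLTR2a 74 and IAPLTR2b 64, together 290 of 320, or 90.6% (exact 95% interval over loci 86.9 to 93.6). The same subfamilies made up 55.0% of all loci. The IAPLTR1 group gave 25 members, 14 of them IAPLTR1_Mm and 11 IAPLTR1a_Mm, and IAPLTR4 gave the remaining 5. Read the other way, 10.9% of IAPLTR2_Mm loci were members (interval 9.34 to 12.7), as were 11.0% of IAPLTR2a loci (8.75 to 13.6) and 11.1% of IAPLTR2b loci (8.66 to 14.0). The 3 IAPLTR2 subfamilies therefore had nearly equal shares, with overlapping intervals. The share was 1.54% for IAPLTR1_Mm (interval 0.842 to 2.56) and 0.891% for IAPLTR1a_Mm (0.446 to 1.59), below each of the IAPLTR2 intervals. Of 10 IAPLTR4 loci, 5 were members, and neither the 3 IAPLTR4_I loci nor the single IAPLTR3 locus was. Intervals here treat loci as independent draws, leave out sequencing error and differences between cultures, and were used with no test of enrichment.

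The IAPLTR2 group held 92.3% of the loci at 65 to 70% in ES cells, 92.5% at 60 to 65%, 89.3% at 50 to 60% and 93.3% (14 of 15) at 40 to 50%. Under 40% it held 9 of 14. Outside the threshold it held 93.2% (247 of 265) at 70 to 75% and 83.4% at 75 to 80%, so its predominance was not particular to the members. The 8 lowest members came from 5 subfamilies. An IAPLTR4 copy at chr5:146512964-146513306 (minus strand) was listed at 0.0% in both libraries. An IAPLTR2b copy at chr14:12148594-12148809 (plus strand) was at 18.4% in the ES library and 94.4% in the Neuro2A library. Next came an IAPLTR2_Mm copy at chr6:37414146-37414607 (plus strand) with 23.5% and 16.8%. These 3 loci already show both patterns found among the lowest members, low in each line, or low in ES cells and not in Neuro2A cells. An IAPLTR4 copy at chr19:8108284-8108625 (plus strand) was of the former kind, with 31.8% in the ES library and 30.4% in the Neuro2A library. The other 4 were of the latter kind: an IAPLTR2a copy at chr8:82133248-82133637 (minus strand) was at 32.7% and 90%, and an IAPLTR2_Mm copy at chr1:135896026-135896444 (plus strand) at 35.1% and 75.9%. IAPLTR1_Mm copies at chr14:104988587-104988938 (minus strand) and chr9:3466120-3466472 (minus strand) had 33.6% and 33.7% in ES cells against 77.1% and 93.7% in Neuro2A cells.

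**Figure D1:**
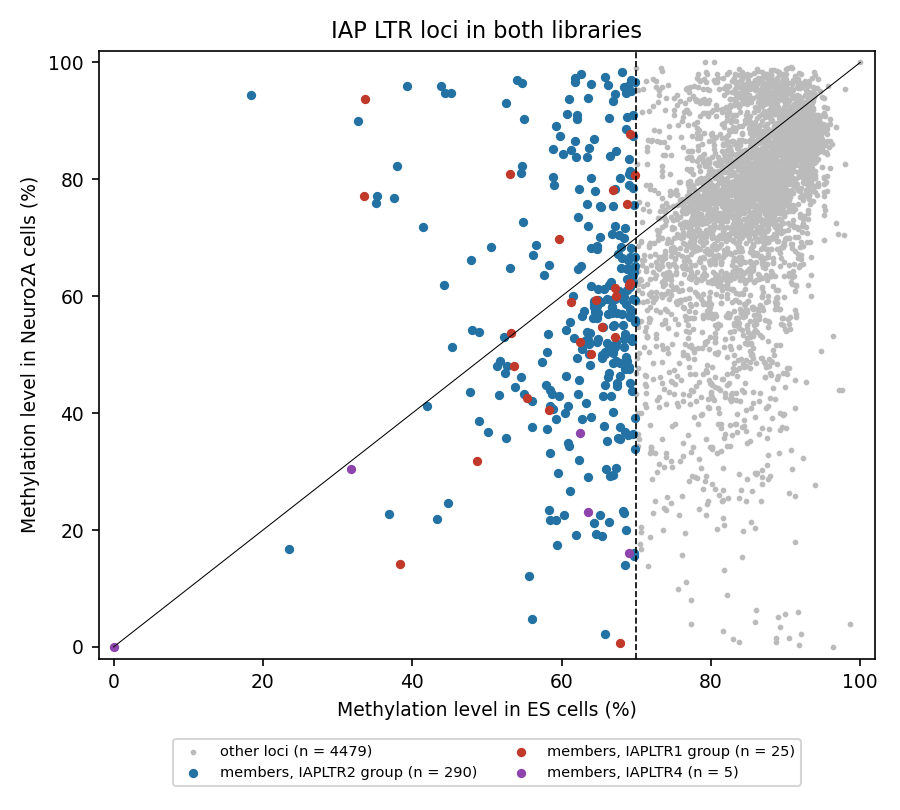
Methylation level in Neuro2A cells (vertical axis, percent) against that in ES cells (horizontal axis, percent), 1 point per LTR locus; the dashed line marks the 70% threshold and the thin line equal levels. The 320 members, coloured by subfamily group, reach from 0.0% to 98.3% in Neuro2A cells.

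In Neuro2A cells, which the rule did not use, the members had a median of 57.05% with an interquartile range of 44.0 to 72.3%, against a median of 80.6% over all loci. Of the 320 members, 232 were under 70% there as well, or 72.5% (interval 67.3 to 77.3), where 25.9% of all loci were. Under 40% were 61 members (19.1%), against 4.56% of all loci. At 80% or above were another 61, against 51.4% of all loci, and 34 of these were at 90% or above, against 13.3% of all loci. The members thus lay lower than the whole set in the second line. Their levels there had an SD over loci of 21.8 points, against 9.24 points for their ES levels, which the threshold caps from above. A wider spread in Neuro2A cells was not particular to the members, as the other loci had SDs of 15.6 points there and 6.07 points in ES cells.

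Selecting loci by a low value in one library is expected on its own to bring the other library's values nearer to its centre, so the members were set beside 3 references. The first was the set of 265 loci just outside, at 70 to 75% in ES cells. Their Neuro2A median was 63.5%, 70.9% of them were under 70% in Neuro2A cells (interval 65.1 to 76.3), and 12.1% were under 40%. The members' share under 70% was therefore close to that of the loci just outside, with overlapping intervals. The second was a least-squares line of the Neuro2A on the ES level over all 4799 loci (slope 0.921), which put the Neuro2A level at 57.7% for the members' median ES level. The members lay around that line, 159 above it and 161 below, with a median residual of -0.056 points. A line through the non-members alone was steeper (slope 1.17), and 210 members lay above it and 110 below, with a median residual of 5.34 points.

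The third reference was the mirror selection, the 320 loci with the lowest Neuro2A level, all at 45.2% or less, a limit at which 3 loci were tied. They had a median of 77.6% in the ES library and 34.9% in the Neuro2A library. The members' medians were 2.50 SDs (over all loci) below the all-locus median in ES cells and 1.40 SDs below it in Neuro2A cells. The mirror loci were 2.72 SDs below it in Neuro2A cells and 1.04 SDs below it in ES cells. The selections shared 87 loci, 27.2% of each. Among the mirror loci, 135 (42.2%) were at 80% or above in ES cells, while 61 members were at 80% or above in Neuro2A cells.

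Within the members, the ES and Neuro2A levels were weakly related. Spearman's rho over the 320 loci was 0.093 and Pearson's r 0.050, against 0.53 and 0.46 over the 4479 other loci. Without the locus listed at 0 in both libraries, rho was 0.084 and r was -0.0069 over 319 members. These coefficients describe loci of 1 library per line. The rule narrows the ES range of the members, which by itself tends to weaken a coefficient. The other loci also mix the subfamily groups, whose non-members differed in both lines. Their medians were 91.0% in ES and 86.2% in Neuro2A cells for the IAPLTR1 group, and 83.7% and 74.9% for the IAPLTR2 group. The contrast in coefficients is therefore not read as a feature of the members. By ES level, the Neuro2A median was 58.2% for members at 65 to 70%, 57.2% at 60 to 65%, 48.0% at 50 to 60% and 53.9% at 40 to 50%. For the 14 members under 40% it was 76.95%, with quartiles at 24.7 and 88.1%. The lowest ES loci were thus divided between low and high Neuro2A levels, with 5 of the 14 under 40% and 5 at 80% or above.

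**Figure D2:**
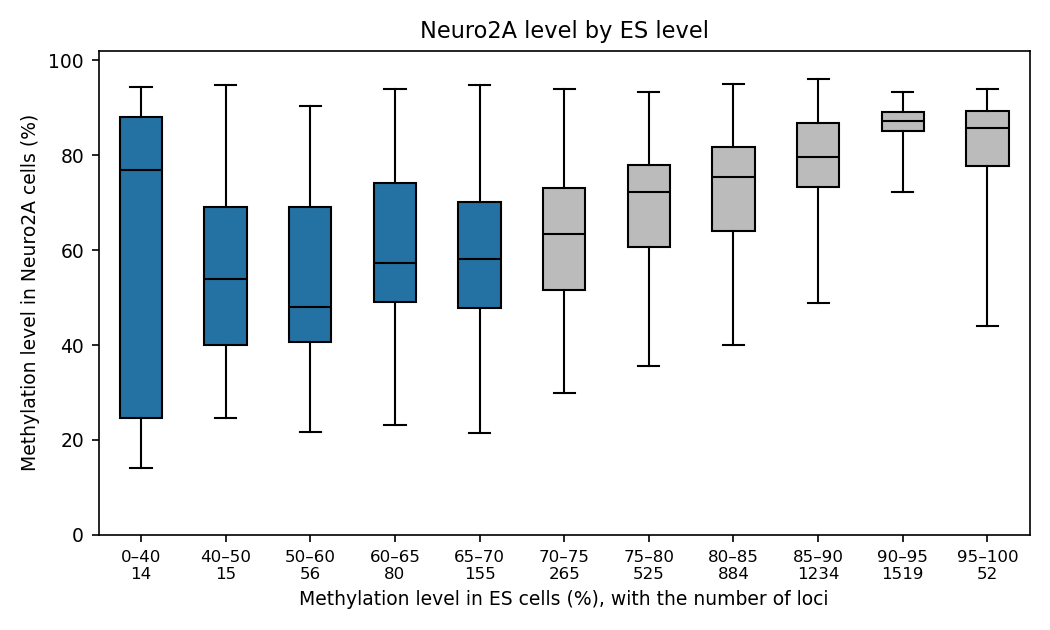
Methylation level in Neuro2A cells (percent) by ES level (percent, number of loci under each range); boxes give quartiles and median, whiskers the percentiles 5 and 95 over loci, members in blue. The median falls from 87.2% at 90 to 95% in ES cells to 58.2% at 65 to 70%, and stands at 76.95% in the 14 loci under 40%.

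The median difference between the lines, ES minus Neuro2A, was 7.15 points over the members and 6.1 points over all loci, and it contains the ES level by which the members were chosen. As a mean it was 4.22 points over the members, and as a median with the all-locus shift of 6.1 points removed, 1.05 points. Its direction turned with the ES level, which is a term of the difference and lowers it by construction, so nothing is read from the turn. The median was 9.5 points for the 155 members at 65 to 70% and 1.4 points for the 85 under 60%. For the 29 of these 85 that were under 50% it was -17.7 points. At 67 members the ES level was the higher by 20 points or more, or 20.9% (interval 16.6 to 25.8), against 14.9% of all loci. The share was 25.3% (20.2 to 31.0) among the loci just outside, so it was not particular to the members. At 56 members the Neuro2A level was the higher by 20 points or more, or 17.5% (13.5 to 22.1), against 1.58% of all loci. The choice of loci low in ES cells leaves more room in that direction, and nothing is read from this contrast. Of the 76 loci in the series with such an excess in Neuro2A cells, these 56 are members and 19 lay just outside, at 70 to 75%.

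The members with the highest Neuro2A levels were unpaired IAPLTR2-group copies. An IAPLTR2_Mm copy at chr7:129195125-129195633 (plus strand) had 98.3% in the Neuro2A library and 68.1% in the ES library. IAPLTR2a copies at chr15:95583747-95584136 (plus strand) and chr5:117889722-117890117 (minus strand) had 98.1% and 97.0% against 62.6% and 54.0%. IAPLTR2_Mm copies at chr3:30818483-30818995 (minus strand) and chr1:9974436-9974903 (minus strand) had 97.5% and 97.3% against 65.8% and 61.8%, and an IAPLTR2b copy at chr10:111048135-111048450 (minus strand) had 97.0% against 69.3%. These 6 copies were all near full methylation in Neuro2A cells. At the other end, after the IAPLTR4 copy listed at 0.0% in both lines, came 2 copies on the X chromosome. An IAPLTR1a_Mm copy (39388014 to 39388339, minus strand) was at 0.7% in the Neuro2A library and 67.8% in the ES library, and an IAPLTR2b copy (43998747 to 43999096, minus strand) at 2.3% and 65.8%. IAPLTR2a copies at chr2:111437078-111437474 (minus strand) and chr6:58155780-58156144 (plus strand) were at 4.8% and 14.0% in Neuro2A cells, where ES cells had 56.0% and 68.5%, and an IAPLTR2b copy at chr5:6456380-6456700 (minus strand) at 12.2% against 55.6%. The lines differ in strain, and whether both carry each of these copies was not tested.

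The members of the IAPLTR2 subfamilies had similar medians in Neuro2A cells. The 152 IAPLTR2_Mm members had a Neuro2A median of 57.25% (quartiles 43.3 and 79.3), with 38 of them at 80% or above. The 74 IAPLTR2a members had a median of 55.0% with 13 at 80% or above, and the 64 IAPLTR2b members 58.05% with 6. The non-member medians in Neuro2A cells were 74.4%, 76.4% and 73.3%, in that order. The quartiles of the IAPLTR2b members were 50.05 and 64.975% in Neuro2A cells. Among all loci of their own subfamily, ranked by Neuro2A level, the members' median stood at percentile 22.5 for IAPLTR2_Mm, 17.7 for IAPLTR2a and 19.4 for IAPLTR2b. It stood at 7.26 for IAPLTR1_Mm and 3.16 for IAPLTR1a_Mm. The rule took 1.54% and 0.891% of the loci of these 2 subfamilies, against 10.9 to 11.1% of each IAPLTR2 subfamily. A narrower selection by itself tends to give lower percentiles, so nothing is read from this order.

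The IAPLTR1 subfamilies, rare among the members, parted in Neuro2A cells. All 11 IAPLTR1a_Mm members were under 70% there, from 0.7 to 62.2% with a median of 53.0%, and none was at 80% or above. The 14 IAPLTR1_Mm members reached from 14.2 to 93.7% with a median of 72.8%, with 7 under 70% and 4 at 80% or above. Non-members of these subfamilies had Neuro2A medians of 85.5% (IAPLTR1a_Mm) and 86.7% (IAPLTR1_Mm). The 11 IAPLTR1a_Mm members, low in ES cells by the rule, were thus low in Neuro2A cells too, whereas the IAPLTR1_Mm members were mixed. The subfamilies also differed in pairing, which is defined below. All 11 IAPLTR1a_Mm members were unpaired. Of the IAPLTR1_Mm members, 7 were candidate 5′ LTRs (Neuro2A median 75.8%) and 7 were unpaired (61.9%). With so few loci, the contrast between the subfamilies rests on single copies and was not tested, nor was the part of position in it.

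All 5 IAPLTR4 members were under 40% in Neuro2A cells, with a median of 23.1%. Besides the copies on chromosome 5 and chromosome 19 given above, they were a copy at chr7:50228031-50228371 (minus strand) at 62.5% in ES and 36.6% in Neuro2A cells, a copy at chr9:38432483-38432774 (plus strand) at 69.0% and 16%, and a second copy at chr19:8393371-8393712 (plus strand) at 63.6% and 23.1%. The 5 IAPLTR4 loci that were not members had medians of 76.2% in the ES library and 32.7% in the Neuro2A library. In Neuro2A cells the IAPLTR4 members and non-members were therefore both low.

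Members were mostly LTRs without a partner. Loci were paired where neighbours in the list shared subfamily and strand and were separated by 1 to 8 kb; the upstream locus of a pair is its candidate 5′ LTR, the downstream locus its candidate 3′ LTR. Of the members, 256 (80%, interval 75.2 to 84.2) were unpaired, as were 62.2% of all loci. A further 27 (8.44%, interval 5.63 to 12.04) were candidate 5′ LTRs and 37 (11.6%, 8.27 to 15.6) candidate 3′ LTRs, where each class held 18.9% of all loci. With pairs limited to gaps of 2 to 7 kb, 4.38% of members and 14.7% of all loci were candidate 5′ LTRs. Within the IAPLTR2 group, 12.8% of unpaired loci were members (interval 11.3 to 14.4), against 9.002% of candidate 3′ LTRs (6.42 to 12.2) and 4.87% of candidate 5′ LTRs (3.00 to 7.42). In this group the unpaired and 5′ intervals did not overlap. Its 247 loci just outside, at 70 to 75% in ES cells, were 18 candidate 5′ LTRs, 50 candidate 3′ LTRs and 179 unpaired loci. Its 290 members were 20, 37 and 233, in that order. The low share of candidate 5′ LTRs was therefore not particular to the members. An unpaired locus may be a solo LTR or one whose partner was not among the 4799 loci, and these cannot be told apart here.

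The ends of a copy ranked in opposite order in the subfamily groups. Among IAPLTR1-group pairs, 7 of 495 candidate 5′ LTRs were members (1.41%, interval 0.570 to 2.89) and 0 of 495 candidate 3′ LTRs (upper bound 0.742%). All 7 were IAPLTR1_Mm copies, while IAPLTR1a_Mm had 0 members among 314 candidate 5′ and 0 among 314 candidate 3′ LTRs and all of its 11 members were unpaired. Among IAPLTR2b pairs, 11 of 76 candidate 3′ LTRs (14.5%, interval 7.45 to 24.4) and 3 of 76 candidate 5′ LTRs (3.95%, 0.822 to 11.1) were members. IAPLTR2a had 12 and 6 of 120, and IAPLTR2_Mm 14 and 11 of 215. The 3′ end thus held more members in each IAPLTR2 subfamily and the 5′ end in IAPLTR1_Mm, with overlapping intervals in every case. This order was not particular to the members, as pairs with no member had it too in ES cells. Of 488 such IAPLTR1-group pairs, the 3′ LTR was the higher in 332 and the 5′ LTR in 148. Of 358 such IAPLTR2-group pairs, the 5′ LTR was the higher in 231 and the 3′ LTR in 124. Read assignment between near-identical LTRs of a copy is not described in the sources used here, and its part in these values was not tested.

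**Figure D3:**
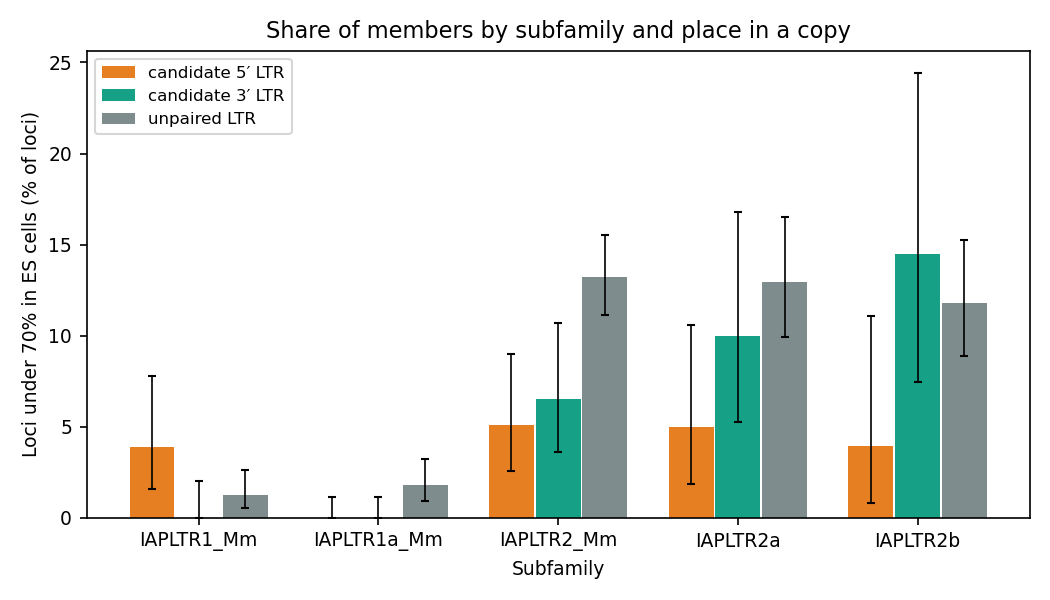
Share of loci under 70% in ES cells (percent of the loci of each class) by subfamily and place in a copy; error bars are exact 95% intervals over loci. Shares lie between 3.95 and 14.5% in the IAPLTR2 subfamilies and between 0 and 3.87% in the IAPLTR1 subfamilies.

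Position also went with the Neuro2A level of the members. The 37 candidate 3′ members, all of the IAPLTR2 group, had a narrow range in Neuro2A cells (37.8 to 73.5%, median 55.6%, SD over loci 9.77), with 27 of them between 40 and 60% and none at 80% or above. The 20 candidate 5′ members of that group spread from 21.7 to 94.6% (median 49.85%, SD 21.0). Its 233 unpaired members spread from 2.3 to 98.3% (median 57.4%, SD 22.7), with 55 at 80% or above and 46 under 40%. Among all members, of which 80% were unpaired, 57 of the 61 at 80% or above in Neuro2A cells were unpaired and 4 were candidate 5′ LTRs. Of the 61 under 40%, 53 were unpaired, and within the IAPLTR2 group 46 of 233 unpaired members and 4 of 20 candidate 5′ members were that low. Non-members of the IAPLTR2 group also had their smallest spread at candidate 3′ LTRs, with SDs of 8.91 at candidate 3′ LTRs, 18.7 at candidate 5′ LTRs and 17.6 at unpaired loci.

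The partner LTR of a member is a locus in its own right, to which the rule was applied as to any other. The 64 paired members came from 60 pairs, of 906 in all: in 23 pairs the candidate 5′ LTR alone was a member, in 33 the candidate 3′ LTR alone, and in 4 both. Partners had a median of 83.9% in ES cells, from 63.9 to 97.9%, against 65.05% for the members themselves, and 39 of 64 partners were at 80% or above. For IAPLTR2-group members the partner median was 82.4%, and for non-members of that group 83.6%. Partners were members in 14.0% of the former (8 of 57) and 6.41% of the latter (49 of 765). Since 6.67% of all loci were under the threshold, a partner above it is the usual case for any locus, and no feature of the members is read from these counts.

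In Neuro2A cells the partner was the higher LTR for 52 of the 64 paired members and the lower for 12. Over all 64 the median of partner minus member was 15.5 points. The partners' Neuro2A median was 74.6% and the members' own 54.65%. Members at the 3′ end were lower than their partner in 33 of 37 cases, and those at the 5′ end in 19 of 27. The median of partner minus member was 21.8 points over all 37 and 9.7 points over all 27. In the 358 IAPLTR2-group pairs with no member, the 5′ LTR was the higher in Neuro2A cells in 206 (57.5%). Over all 358 the median of 5′ minus 3′ LTR was 3 points. The 4 pairs with both LTRs members enter the 52 and the 12 alike, as they are counted from both ends. In pairs with a single member, the end under 70% in ES cells was therefore mostly the lower end in Neuro2A cells too. How often this holds for the lower ES end of other pairs was not counted. The distance between the LTRs of IAPLTR2-group pairs had medians of 2022 bp with a member and 2006.5 bp without. In the IAPLTR1 group it was 4582 bp for the 7 pairs with a member and 5915.5 bp for the 488 without.

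**Figure D4:**
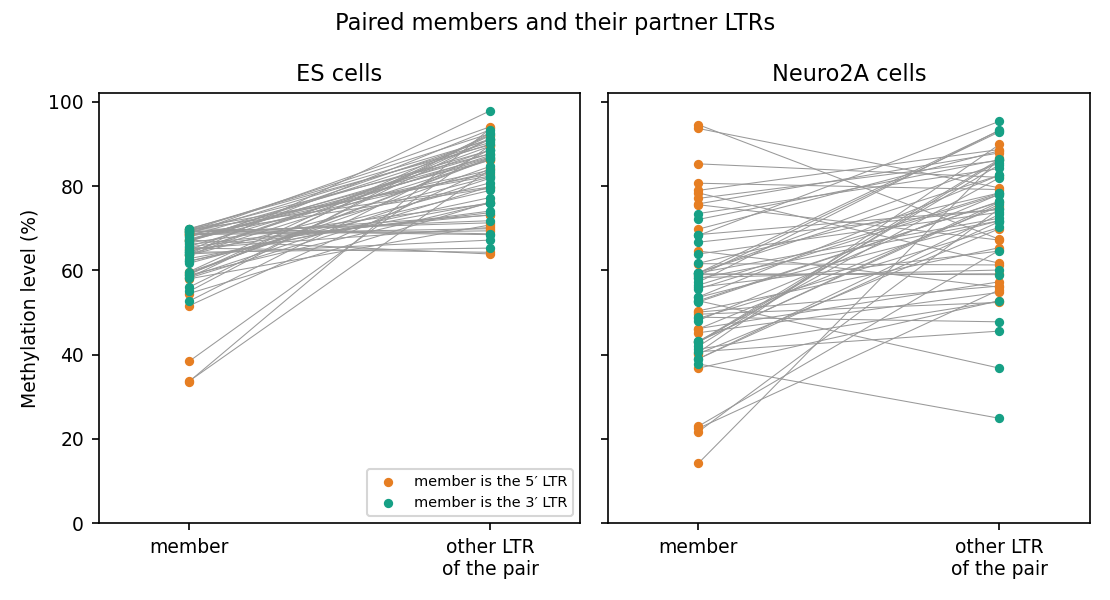
Methylation level (percent) of the 64 paired members and of the other LTR of each pair, in ES cells (left) and Neuro2A cells (right); each line joins a member to its partner, and 4 pairs with both LTRs members appear once from each end. In Neuro2A cells 52 of the 64 lines go up toward the partner.

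The pairs with the largest gap in ES cells were IAPLTR1_Mm copies whose 5′ LTR was low. On chromosome 14 the 5′ LTR at 104988587 to 104988938 was at 33.6% and its 3′ partner (104981835 to 104982186) at 93.7% in ES cells, with 77.1% and 86.1% in Neuro2A cells. On chromosome 10 a 5′ LTR (121807695 to 121808048, minus strand) was low in both lines, at 38.4% and 14.2%, while its partner (121803118 to 121803471) stood at 89.7% and 86.6%. On chromosome 9 the 5′ LTR at 33.7% in ES and 93.7% in Neuro2A cells had a partner (3461294 to 3461646) at 84.0% and 79.6%. These 3 copies had a methylated 3′ LTR in each line and differed in the 5′ LTR, which was the lower LTR by over 50 points in ES cells in each copy and in Neuro2A cells in the copy on chromosome 10. Over all 7 IAPLTR1_Mm pairs with a member, the partners lay between 84.0 and 94.1% in ES cells and between 79.2 and 89.9% in Neuro2A cells, and the members between 33.6 and 69.9% and between 14.2 and 93.7%.

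The next gaps were at 3′ ends on chromosome 17. An IAPLTR2_Mm 3′ LTR (83149249 to 83149701, minus strand) had 55.0% in ES and 43.2% in Neuro2A cells, against 92.6% and 82.0% at its 5′ partner (83151830 to 83152279). An IAPLTR2a 3′ LTR (21357578 to 21357910, plus strand) had 52.7% and 48.1%, against 88.7% and 78.1% at its partner (21355192 to 21355559). In these copies the 3′ end was the lower in both lines.

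In the 4 pairs with both LTRs under 70%, the ends differed by at most 3.3 points in ES cells, and by more in Neuro2A cells in 3 of the pairs. An IAPLTR2b pair on the X chromosome (124330642 to 124330954 and 124334586 to 124334889, plus strand) had 65.3% and 64.3% in ES cells, with 59.0% and 59.2% in Neuro2A cells. An IAPLTR2_Mm pair on chromosome 5 (124721353 to 124721802 and 124724480 to 124724943, plus strand) had 67.2% and 63.9%, then 78.4% and 61.7%. IAPLTR2a pairs on chromosome 7 had 68.5% and 69.4% in ES cells with 36.8% and 52.8% in Neuro2A cells (8857281 to 8857657 and 8859467 to 8859843), and 68.7% and 69.9% with 64.6% and 56.0% (68989433 to 68989831 and 68991703 to 68992101), all on the plus strand. Each of these pairs belonged to the IAPLTR2 group, and none fell under 60% in ES cells at either end.

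Members were longer than other loci over the whole set, and not within the IAPLTR2 subfamilies. Their median LTR length was 398.5 bp and that of the other loci 365 bp. Within subfamilies the medians were 452 and 457 bp for IAPLTR2_Mm, 390 and 391 bp for IAPLTR2a, and 318.5 and 326 bp for IAPLTR2b, members first. IAPLTR2b members were thus the shorter by 7.5 bp, and the other IAPLTR2 members differed little in length from their subfamily. In IAPLTR2b, 13.4% of loci more than 10 bp shorter than the subfamily median were members (interval 8.40 to 19.97), 11.2% of those within 10 bp of it (7.99 to 15.1), and 7.29% of longer ones (2.98 to 14.4), with overlapping intervals. Member lengths reached from 98 bp, an IAPLTR1_Mm remnant on the X chromosome (145348688 to 145348785, minus strand) at 53.1% in ES and 80.9% in Neuro2A cells, to 603 bp, an IAPLTR2_Mm copy at chr14:39841906-39842508 (plus strand) at 52.4% and 46.8%.

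Among the IAPLTR1a_Mm members one length recurred, a pattern picked out after their values were seen. Their median was 356 bp and that of the other IAPLTR1a_Mm loci 337 bp. Of the 729 loci of this subfamily that were 335 to 339 bp long, 1 was a member, and of the 36 that were exactly 356 bp long, 5 were members. The 5 members of 356 bp lay on chromosomes 3, 5 and 15, between 55.4 and 69.2% in ES cells and between 42.6 and 62.2% in Neuro2A cells. All 36 loci of that length had medians of 80.95% in ES and 79.1% in Neuro2A cells, against 91.2% and 87.15% for the 330 loci of 337 bp, so the lower level was not limited to the members. Longer IAPLTR1a_Mm loci as a class also had lower levels. The 251 that were more than 10 bp longer than the subfamily median had medians of 84.7% in ES and 81.4% in Neuro2A cells and held 8 members (3.19%, interval 1.39 to 6.18), and the 941 within 10 bp of it had 90.6% and 86.3% and held 2 (0.213%, 0.0257 to 0.766). Single lengths within the longer class varied, as the 49 loci of 352 bp had medians of 91.3% and 86.5% and held 0 members. Loci of 356 bp were also mostly unpaired, at 28 of 36, against 606 of all 1234 IAPLTR1a_Mm loci, and unpaired IAPLTR1a_Mm loci of any other length held 6 members among 578.

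Members were divided evenly between the strands. The minus strand held 161 of the 320 members (50.3%, interval 44.7 to 55.9) and 51.1% of all loci. Levels were close as well: members on the plus strand had medians of 65.2% in ES and 57.2% in Neuro2A cells, and those on the minus strand 64.4% and 55.6%. In the IAPLTR1 group 17 of 25 members were on the minus strand (68.0%, interval 46.5 to 85.1), and in the IAPLTR2 group 142 of 290 (49.0%, 43.1 to 54.9). Each interval covers the share among all loci.

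Members were found on every autosome and on the X chromosome. Autosomes held 285 (6.60% of their loci, interval 5.88 to 7.38), the X 32 (7.66%, 5.30 to 10.6), and sequence of the Y chromosome or without a place the remaining 3. By chromosome the share reached from 2.48% on chromosome 16 (5 of 202, interval 0.808 to 5.68) to 11.5% on chromosome 19 (10 of 87, 5.65 to 20.1). Chromosome 16 and chromosome 13 (3.54%, 1.63 to 6.62) were the 2 whose interval lay under the 6.67% of all loci, and chromosome 13 only just. IAPLTR2-group loci gave the same order at the low end, with 4.90% members on chromosome 16 and 5.56% on chromosome 13 against 11.0% over all such loci. No correction was made for looking at 20 chromosomes. In Neuro2A cells the members' median was 56.45% on the X and 57.0% on autosomes.

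**Figure D5:**
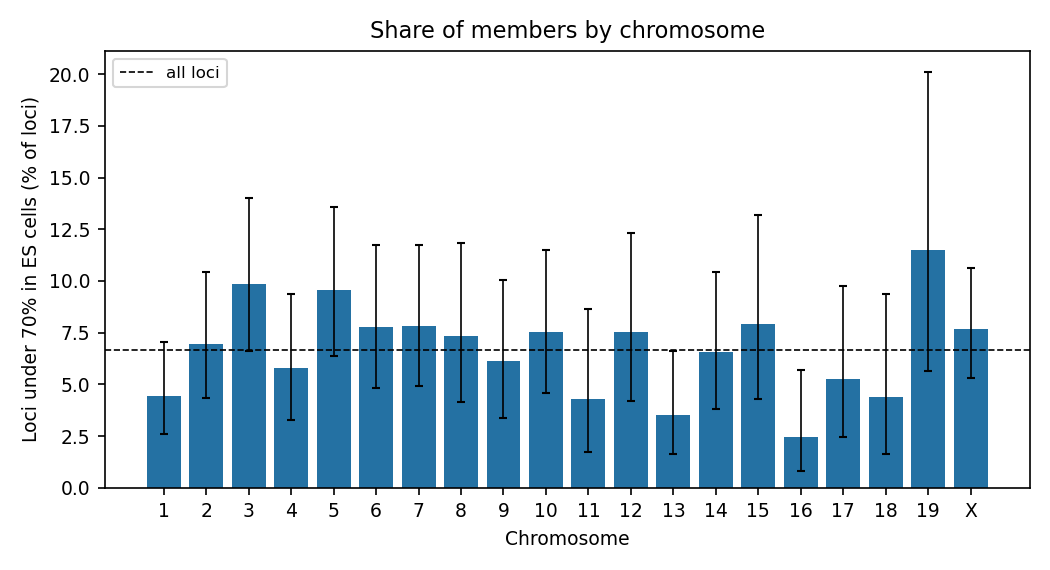
Share of loci under 70% in ES cells (percent of the loci of each chromosome); error bars are exact 95% intervals over loci, and the dashed line is the 6.67% of all loci. Shares run from 2.48% on chromosome 16 to 11.5% on chromosome 19.

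Along the chromosomes members were found in every stretch. With each autosome and the X cut into 5 equal stretches between its outermost loci, the share of members was 6.46, 8.73, 5.49, 6.06 and 6.70% from start to end, and neighbouring intervals overlapped. Their Neuro2A medians were 55.6, 53.7, 56.0, 56.95 and 64.6%, in that order. In all, 91 members (28.4%, interval 23.6 to 33.7) had another member within 1 Mb, and 25.03% of the other loci had a member that near (23.8 to 26.3). The share of the other loci lies inside the members' interval, and the members' count includes the 4 pairs with both LTRs members. The largest groups within 1 Mb held 3 members, and more groups had that number than are given here. The 3 groups given are the first in chromosome order, not the tightest. Each span is bounded by members, which raises their share of its loci. On chromosome 5, between 6261878 and 6684726, 3 of 4 loci were members, at 43.3, 55.6 and 68.4% in ES cells, with Neuro2A levels of 21.9, 12.2 and 52.7%. On chromosome 4 (113262905 to 113939626) all 3 loci were members, at 62.8 to 68.4% in ES and 50.7 to 56.6% in Neuro2A cells, and on chromosome 3 (46265079 to 47017980) 3 of 6, at 65.6 to 69.0% and 47.9 to 55.0%. All 9 copies in these groups were unpaired IAPLTR2-group LTRs, as were 233 of all 320 members. Another group of 3 on chromosome 5 (41170318 to 41786886) held an IAPLTR1a_Mm and an IAPLTR1_Mm copy beside an IAPLTR2_Mm copy.

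Members tended to lie farther from other IAP LTRs. The median gap to the nearest measured locus was 137 kb for members and 44.1 kb for other loci, a difference to which pairing contributes, since a paired locus has its partner within 8 kb. Among unpaired IAPLTR2-group loci alone, the median gap was 222 kb for members and 169 kb for the rest. In that class the share of members was 8.28% where the nearest locus was under 10 kb away (interval 4.48 to 13.7), 11.9% at 10 to 100 kb (9.18 to 15.2), 13.4% at 100 kb to 1 Mb (11.4 to 15.5) and 18.2% at 1 Mb or more (11.1 to 27.2). The intervals of the nearest and the farthest class overlapped, and the ES median over all loci of these classes did not follow the distance, at 83.2, 82.4, 81.7 and 82.8%. The 18 members at 1 Mb or more had a Neuro2A median of 75.65%, against 57.3% for the 145 members at 100 kb to 1 Mb. This contrast rests on few loci and was not tested. The Neuro2A level of all loci in these distance classes was not computed, so it cannot be called particular to the members. The nearest other locus 10 kb to 1 Mb away had a median of 85.6% in ES cells beside members and 86.3% beside other loci, with 79.1% and 80.7% in Neuro2A cells. That neighbour was itself a member for 31 of 298 members (10.4%) and for 302 of 4209 other loci (7.18%), and within the IAPLTR2 group for 9.67% and 7.19%.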

How the data were processed

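DNA methylation of IAP LTR loci was compared in 2 libraries, AB2.2 ES cells and Neuro2A cells. The deposited score of each locus is its methylation level as a fraction times 1000, per the file headers, and was divided by 10 to give percent. Coordinates are on mm9, as the file headers state. The submitters' processing notes list Bowtie2, with neither its role nor a version. How levels were called, how reads were filtered and how reads matching more than 1 copy were assigned is not given in the sources used here. Both libraries list the same 4799 loci. No read numbers are given, so the depth per locus is unknown and the coverage minimum in the plan was not applied.

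Loci were matched by name, and subfamily, strand and position (1-based) were read from the name; in 1 ES row the position columns disagreed with it. No mm9 genome or annotation was used, so sequences and genes are not reported. Members had an ES level under 70%. With 1 library per line no p-value is given; shares carry exact (Clopper-Pearson) 95% intervals over loci (SciPy 1.17.1, Python 3.11.15). Named loci were the 8 lowest in ES, the 6 highest and 6 lowest in Neuro2A, 3 on each side of the threshold, the 4 pairs with both LTRs members, the 5 pairs with the largest gap, the longest, the shortest, the IAPLTR4 members and 3 of the groups with the most members within 1 Mb. Ties were taken in chromosome and position order. The members, rules and comparisons were chosen with earlier results of these data known. The scripts were tested on simulated levels.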

Additional observations from a re-analysis of the deposited data

How the results depend on the processing

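No paired analysis was possible because the series holds 1 library of either line. Of 67 alternative values for 9 results, 45 stayed within the interval over loci and 22 moved further. For the number of members the limit was 1.5 times. A reversal of sign could be counted only for the difference between the lines, and 0 were found at the settings used. An ES threshold of 50%, not among these settings, gave a median difference of -17.7 points. ES thresholds of 60, 65 and 75% gave 85, 165 and 585 members by construction, and 7.06, 12.7 and 43.8% with another member within 1 Mb. At 60% the Neuro2A median was 48.9%, the difference between the lines 1.4 points and the IAPLTR2 group 85.9% of members; at 65% the difference was 5.5 points, and at 75% the Neuro2A median 60.3%. Centring the libraries on their medians (6.1 points apart) gave 660 members and a difference of 1.05 points, and the mean difference was 4.22 points. Neuro2A limits of 60 and 80% gave 58.4 and 80.9% of members. Keeping 1 locus per 100 kb left 4.03% candidate 5′ LTRs and 17.3% with another member within 1 Mb; pairs 2 to 7 kb apart gave 4.38% candidate 5′ LTRs. Distances of 100 kb and 5 Mb gave 8.13 and 70.6%. In the IAPLTR1 group alone, chosen after seeing the data, 68.0% of members were on the minus strand. Apart from these constructions the cause was not tested. Autosomes only and leaving out loci at exactly 0 moved none of the 9 results that far. Depth is unknown, so single levels, above all the locus at 0, have no stated precision.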
